A study of Mus musculus with 12 samples.

Results

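The brain's own cannabinoid system is described here through 10 genes: the receptor gene Cnr1, its partner Cnrip1, and the enzymes that make or break down the lipids which act on that receptor (Dagla, Daglb, Mgll, Abhd6, Abhd12, Napepld, Faah and Naaa). They were listed by name for their roles in this system, with earlier results of these data known, and all 10 were found among the 23382 annotated rows of a mouse hippocampal RNA-seq table. Each of the 10 held enough reads to be tested. The mice received Δ9-tetrahydrocannabinol (THC), the intoxicating cannabinoid of the hemp plant, and the study's title places the exposure in adolescence and the memory readout in adulthood. It crossed the exposure with an astrocyte-directed genetic manipulation called aDN-DISC1. There were 3 libraries in each of 4 groups: aDN-DISC1 mice given THC ("mutant THC"), aDN-DISC1 mice given vehicle ("mutant vehicle"), control mice given THC ("control THC") and control mice given vehicle ("control vehicle"). The labels put all 12 mice on a C57BL/6 background. They name no driver for the aDN-DISC1 construct, no dose, age or sex, and no further allele for the control mice, whose group was read from the sample titles. The labels describe the libraries as separate samples without saying that each is from its own animal, so the p-values measure the spread between these samples.

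In this system the neuron that receives a signal makes the lipid messenger and releases it backwards across the synapse. The messenger acts on the CB1 receptor, encoded by Cnr1, on the sending terminal and lowers transmitter release. The signal is carried by the lipids 2-arachidonoylglycerol and anandamide, each with enzymes of its own for synthesis and breakdown, and THC is a partial agonist of the same receptor. In the hippocampus CB1 is densest on the terminals of interneurons that contain cholecystokinin (Cck), is also found on glutamatergic terminals, and occurs at low level in astrocytes.

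No gene among the 10 passed the test in any comparison: THC against vehicle in either genotype, mutant against control mice under either treatment, the average of each, or the interaction of THC with the mutation. The test was edgeR's quasi-likelihood F test with Benjamini-Hochberg adjustment over 15802 genes at a threshold of 0.05. Of all tested genes, 0% to 0.00633% passed, depending on the comparison, so the absence of calls was not particular to these 10. Short of that threshold, the libraries gave an order of levels with some neighbours unresolved, a small lower value of Abhd6 in THC-treated mice of both genotypes, a Napepld level that was higher in all control THC libraries than in control vehicle and mutant THC libraries, and a strong dependence of Cnr1, Faah, Dagla and Cnrip1 on single libraries.

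Several libraries differed in the tissue they held, and this touches the results. Levels are counts per 1000000 (CPM). The summed level of 12 striatal neuron markers was 4923 CPM in mutant THC 3 and 639 CPM in mutant vehicle 3, against 214 to 244 CPM in the other 10 libraries. Likewise, 12 choroid plexus markers, led by the transthyretin gene Ttr, summed to 4954 to 16807 CPM in 6 libraries (mutant THC 1 and 3, all 3 mutant vehicle libraries, and control THC 2) and to 327 to 406 CPM in the other 6. The markers of hippocampal neurons, 8 genes, summed to 889 to 1616 CPM in mutant THC and 1121 to 1452 CPM in mutant vehicle libraries. These sums were 1558 to 1710 CPM in control THC and 1384 to 1537 CPM in control vehicle libraries. Slc17a7, the most abundant gene of this list, lay between 393 and 768 CPM. Markers of neocortical layers, 5 genes, were read as well and summed to 69.1 to 204 CPM over the 12 libraries. No gene of these lists was at 0 in any group. Library totals lay between 33165903 and 41389957 expected counts. The THC libraries carry the library numbers 1 to 5 and 12, the last being mutant THC 2, while the vehicle libraries carry 6 to 11. The labels do not say what these numbers stand for, and an effect that follows them cannot be fully told apart from treatment. In whole tissue of this kind, fewer cells of a type and less RNA per cell cannot be told apart.

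The upstream sequences of Faah and Cnrip1 are shown because these are 2 of the 3 genes among the 10 that passed for mutant over control, averaged over treatments, once a single library, mutant THC 2, was left out. In that fit 942 of 15802 genes passed, and with libraries above 1000 CPM of Ttr as a second factor, an alternative chosen after seeing the data, none of the 10 did. For the third, Dagla, no sequence is shown. Both are the 250 bases before a RefSeq start on GRCm38.p6 (for Faah a start inside the annotated gene span given with its values), read 5′ to 3′ on the gene's own strand. Capitals mark GC boxes, searched as GGGCGG on both strands; TATAAA was searched on both strands as well.
Faah, chr4:116017925-116018174, minus strand: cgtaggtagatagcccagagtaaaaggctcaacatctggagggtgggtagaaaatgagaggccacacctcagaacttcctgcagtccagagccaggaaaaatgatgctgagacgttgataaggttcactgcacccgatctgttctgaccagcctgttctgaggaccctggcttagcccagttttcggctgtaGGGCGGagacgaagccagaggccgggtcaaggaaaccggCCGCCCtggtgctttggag
Cnrip1, chr11:17051609-17051858, plus strand: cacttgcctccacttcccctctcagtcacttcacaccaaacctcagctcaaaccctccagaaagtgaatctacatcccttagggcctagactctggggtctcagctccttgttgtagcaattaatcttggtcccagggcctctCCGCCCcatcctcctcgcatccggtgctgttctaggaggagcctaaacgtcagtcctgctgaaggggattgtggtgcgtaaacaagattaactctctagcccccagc
The Faah window held 2 GC boxes and the Cnrip1 window 1, and neither held TATAAA. A GC box occurred in 32.7% of 32851 mouse windows of the same length and TATAAA in 12.4%. The GC content was 55.6% for Faah and 54.0% for Cnrip1.

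The order of levels was first set per length, as CPM per kilobase of the longest matched transcript, averaged over all 12 libraries. Abhd12, a serine hydrolase that degrades 2-arachidonoylglycerol and lysophosphatidylserine, stood far above the rest at 152 ± 8.55 CPM per kilobase (SD, n = 12). Its lowest library, at 134 CPM per kilobase, was above the highest library of any other of the 10 genes. Cnr1 followed at 61.9 ± 17.9 and Mgll, the monoacylglycerol lipase that ends most 2-arachidonoylglycerol signalling, at 55.1 ± 4.86 CPM per kilobase. These neighbours were not separated: Cnr1 was above Mgll in 7 of 12 libraries, and with the mean length of each gene's transcripts in place of the longest, Mgll came to 87.9 CPM per kilobase and lay above Cnr1.

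Cnrip1, which encodes a protein that binds the tail of CB1, was next at 38.3 ± 4.63 CPM per kilobase and did not overlap Mgll. Faah, the hydrolase that breaks down anandamide, averaged 32.5 ± 6.23 CPM per kilobase and was below Cnrip1 in each of the 12 libraries, although the ranges overlapped. Abhd6, a second hydrolase of 2-arachidonoylglycerol placed on the receiving side of the synapse, and Naaa, a lysosomal acid amidase, were at 21.9 ± 2.88 and 21.3 ± 2.10 CPM per kilobase and could not be ordered, with Abhd6 above Naaa in 7 of 12 libraries. With mean transcript lengths Naaa came to 25.5 CPM per kilobase and lay above Abhd6. The enzymes of synthesis were lowest. Dagla, the diacylglycerol lipase responsible for most 2-arachidonoylglycerol in the adult brain, averaged 16.1 ± 3.47 CPM per kilobase, its relative Daglb 13.2 ± 1.23, and Napepld, the phospholipase that releases anandamide from its membrane precursor, 9.64 ± 2.10 CPM per kilobase. Among these 10 genes, then, each synthetic enzyme had a lower mean RNA level per length than each enzyme of breakdown of the same lipid. For anandamide this rests on Napepld alone. Abhd4 and Gde1, from the list of other enzymes and carriers, were not scaled by length. In CPM, Gde1 had group means from 216 to 228, above the Faah mean of 124 over all 12 libraries.

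**Figure D1:**
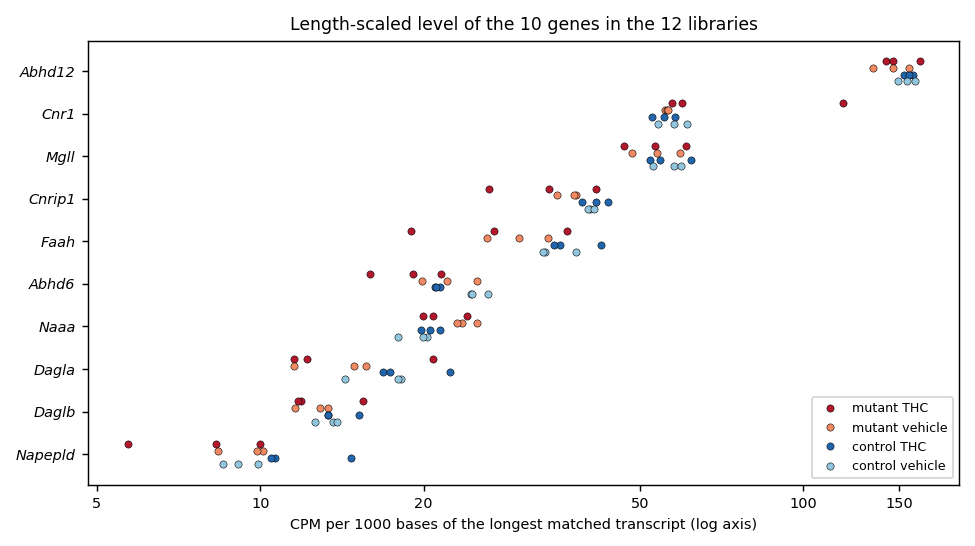
Level per transcript length of the 10 genes, in CPM per kilobase on a log axis, with 1 point per library coloured by group. Abhd12 lies above the rest without overlap, Cnr1 has a single point at 118 CPM per kilobase that belongs to mutant THC 3, and Napepld is lowest at a mean of 9.64.

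Relative spread also differed between the genes. The coefficient of variation over the 12 libraries was 29.0% for Cnr1, 21.7% for Napepld, 21.5% for Dagla and 19.2% for Faah. It was 13.2% for Abhd6 and 12.1% for Cnrip1. The steadiest were Naaa at 9.85%, Daglb at 9.32%, Mgll at 8.81% and Abhd12 at 5.63%. Enzymes of synthesis and of breakdown stood in both the steady and the variable part of this order.

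The receptor gene Cnr1 lies at chr4:33923171-33948831 (GRCm38.p6). In CPM, with no division by length, it read 346, 332 and 687 in mutant THC, 323, 326 and 328 in mutant vehicle, 337, 322 and 306 in control THC, and 336, 313 and 355 in control vehicle libraries. A single library, mutant THC 3, lay near 687 CPM, and the other 11 fell between 306 and 355 CPM. The fitted log2 difference was 0.49 ± 0.22 (SE) for mutant THC over mutant vehicle and 0.50 ± 0.22 for mutant THC over control THC, with edgeR adjusted p of 0.81 and 0.55. Without mutant THC 3 these differences were 0.06 ± 0.06 and 0.07 ± 0.06, with edgeR adjusted p of 0.996 and 0.97. CB1 RNA is known to be abundant in striatal projection neurons. Mutant THC 3 was also the library with 302 CPM of the dopamine receptor gene Drd1 and 192 CPM of Adora2a, against 37.1 and 16.3 CPM in mutant vehicle 3, where Cnr1 was at 328 CPM; the part of these cells in the Cnr1 value was not tested. In control mice Cnr1 averaged 322 ± 15.5 CPM after THC and 335 ± 21.1 CPM after vehicle (SD, n = 3 each), and the log2 difference was -0.06 ± 0.22 (SE; edgeR adjusted p = 0.97).

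Cnrip1 (chr11:17051859-17079372) read 56.3, 68.8 and 43.7 CPM in mutant THC, 62.98, 62.5 and 58.1 in mutant vehicle, 68.8, 64.8 and 72.1 in control THC, and 66.8, 66.4 and 68.2 in control vehicle libraries. The 3 mutant vehicle libraries lay below the 3 control vehicle libraries without overlap, while mutant THC spread across and below the control range. Under vehicle 28% of all genes did not overlap between the genotypes. The choroid plexus marker sum separated the same groups, so genotype and choroid plexus content cannot be told apart there. The log2 difference between mutant and control was -0.13 ± 0.13 under vehicle and -0.29 ± 0.13 under THC (SE; edgeR adjusted p = 0.60 and 0.55). Mutant THC 3, the library with the highest Cnr1, had the lowest Cnrip1.

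**Figure D2:**
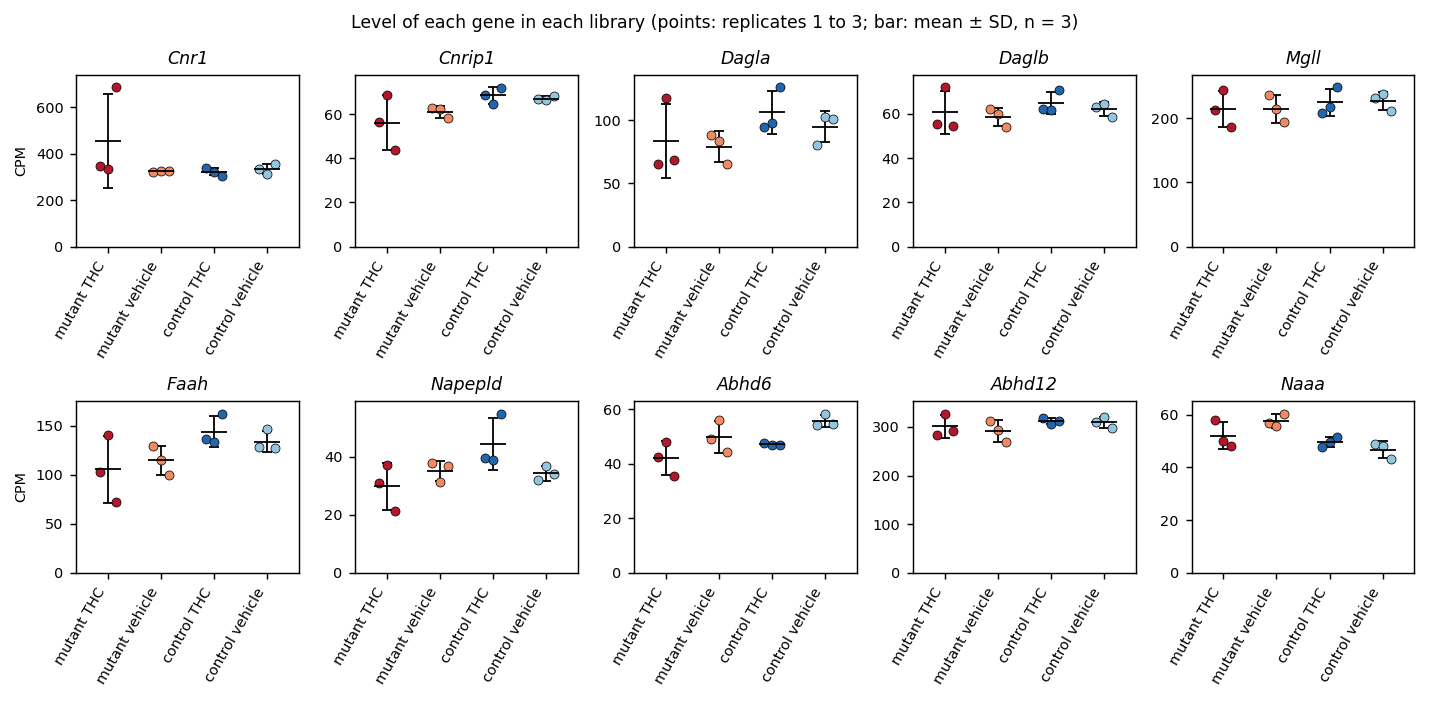
CPM of each of the 10 genes by group (mutant THC, mutant vehicle, control THC, control vehicle), 1 point per library with the group mean and SD; each panel starts at 0. The Cnr1 panel shows a lone high point near 687 CPM in mutant THC, and the Abhd6 panel shows THC groups with means of 42.0 and 47.1 CPM against vehicle groups with 49.8 and 55.7 CPM.

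Among the genes for 2-arachidonoylglycerol synthesis, Dagla (chr19:10245265-10304877) had 64.9, 117 and 68.8 CPM in mutant THC, 88.3, 83.9 and 65.0 in mutant vehicle, 94.7, 97.8 and 126 in control THC, and 80.7, 102 and 101 in control vehicle libraries. Mutant THC 2 was the second highest of all 12 libraries for Dagla while its 2 group mates were among the 3 lowest. The log2 difference between mutant and control was -0.26 ± 0.22 under vehicle and -0.34 ± 0.22 under THC (SE; edgeR adjusted p = 0.56 and 0.61). For THC over vehicle it was 0.08 ± 0.22 in mutants and 0.16 ± 0.22 in controls (SE; edgeR adjusted p = 0.95 and 0.90), and the value in mutants was -0.24 without mutant THC 2. Daglb (chr5:143464484-143504442) varied less, with group means of 60.6 ± 9.89 CPM in mutant THC, 58.7 ± 4.18 in mutant vehicle, 64.9 ± 5.05 in control THC and 62.2 ± 3.09 in control vehicle mice (SD, n = 3 each), and all groups overlapped. Its log2 differences between 2 groups ran from -0.10 ± 0.11 for mutant over control under THC to 0.06 ± 0.11 for THC in controls (SE; edgeR adjusted p = 0.75 and 0.93).

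Of the 3 genes that break down 2-arachidonoylglycerol, Abhd6 (chr14:8002888-8056773) was the one with the lowest p among the 10 genes for THC averaged over the genotypes. It read 42.6, 47.98 and 35.4 CPM in mutant THC against 49.1, 55.9 and 44.3 CPM in mutant vehicle libraries. In controls it read 47.6, 46.8 and 46.96 CPM after THC against 54.3, 58.3 and 54.5 CPM after vehicle. The control groups did not overlap, and the mutant groups did. The log2 difference for THC was -0.24 ± 0.11 in each genotype (SE; edgeR adjusted p = 0.81 in mutants and 0.70 in controls), and the interaction was -0.0020 ± 0.15. Averaged over genotypes it was -0.24 ± 0.07 (SE), which ranked 141 among 15802 genes and did not pass (edgeR adjusted p = 0.79). Other markers separated the same groups: in control THC against control vehicle libraries the astrocyte sum (8 genes) was 5808 to 5870 against 6354 to 6544 CPM, the hippocampal neuron sum 1558 to 1710 against 1384 to 1537 CPM, and the meningeal and mural sum (9 genes) 204 to 237 against 148 to 171 CPM. The cholecystokinin interneuron sum (8 genes) was 1359 to 1516 CPM in control THC against 1241 to 1342 CPM in control vehicle libraries. Its most abundant gene, Cplx2, was at 1042 to 1182 against 897 to 979 CPM. The list as a whole was split, with 4 genes above 0 and 4 below and a median log2 difference of -0.0095. The meningeal and mural sum was 145 to 276 CPM in mutant THC against 277 to 330 CPM in mutant vehicle libraries. The endothelial sum (5 genes) was 156 to 168 CPM in mutant THC against 139 to 153 CPM in mutant vehicle libraries. Their part in the Abhd6 values was not tested. The averaged Abhd6 value stayed below 0, between -0.30 and -0.19, when any of the 12 libraries was left out, and was -0.25 ± 0.07 with the Ttr factor.

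For Mgll (chr6:88724412-88828360) the group means lay closer together than their SDs. They were 214 ± 28.2 CPM in mutant THC, 215 ± 21.6 in mutant vehicle, 225 ± 20.9 in control THC and 226 ± 13.6 in control vehicle mice (SD, n = 3 each). The log2 difference for THC was -0.0040 ± 0.11 in mutants and -0.012 ± 0.11 in controls (SE; edgeR adjusted p = 0.99 for both). Abhd12 (chr2:150832493-150904779) averaged 301 ± 23.1 CPM in mutant THC, 291 ± 22.3 in mutant vehicle, 313 ± 6.11 in control THC and 310 ± 10.97 in control vehicle mice (SD, n = 3 each), and all groups overlapped. Its log2 differences between 2 groups ran from -0.09 ± 0.07 for mutant over control under vehicle to 0.05 ± 0.07 for THC in mutants (SE; edgeR adjusted p = 0.53 and 0.91).

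The largest fitted difference between 2 groups among the 10 genes belonged to an anandamide gene. Napepld (chr5:21662901-21701622) read 30.8, 37.1 and 21.2 CPM in mutant THC, 37.6, 31.2 and 36.7 in mutant vehicle, 39.7, 38.9 and 54.8 in control THC, and 31.9, 36.9 and 33.9 in control vehicle libraries. All 3 control THC libraries lay above all 3 control vehicle and all 3 mutant THC libraries, whereas mutant THC overlapped mutant vehicle and, through mutant THC 2, control vehicle. The astrocyte, hippocampal neuron, meningeal and mural, and cholecystokinin interneuron marker sums separated control THC from control vehicle libraries as given for Abhd6. In the cholecystokinin interneuron list 4 genes were above 0 and 4 below. The microglial sum (7 genes) was 449 to 485 CPM in mutant THC against 404 to 440 CPM in control THC libraries. The endothelial sum (5 genes) was 156 to 168 against 149 to 151 CPM in these groups. The part of these markers in the Napepld values was not tested. The log2 difference was 0.38 ± 0.19 for THC in controls, -0.24 ± 0.19 for THC in mutants and -0.58 ± 0.19 for mutant over control under THC (SE; edgeR adjusted p = 0.73, 0.84 and 0.55). The difference between the THC effects, tested as an interaction, was -0.62 ± 0.27 and did not pass (SE; edgeR adjusted p = 0.74). Single libraries set part of the size: THC in controls was 0.20 without control THC 3, and the mutant difference under THC was -0.39 without mutant THC 3. With libraries above 1000 CPM of Ttr as a second factor the mutant difference under THC was -0.46 ± 0.16 (SE; edgeR adjusted p = 0.90). The THC differences were larger with that factor, at 0.51 ± 0.16 in controls and -0.39 ± 0.17 in mutants (SE, edgeR adjusted p = 0.45 and 0.78).

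Faah (chr4:115996668-116018837) read 103, 141 and 72.7 CPM in mutant THC, 130, 115 and 100 in mutant vehicle, 136, 133 and 162 in control THC, and 128, 146 and 127 in control vehicle libraries. The mutant libraries were the lower ones under both treatments apart from mutant THC 2 and mutant vehicle 1, which lay among the controls. The log2 difference between mutant and control was -0.22 ± 0.20 under vehicle, -0.45 ± 0.20 under THC and -0.33 ± 0.14 averaged (SE; edgeR adjusted p = 0.56, 0.55 and 0.21). Without mutant THC 2 the averaged difference was -0.46 and passed (edgeR adjusted p = 0.043), as did Dagla at -0.46 (edgeR adjusted p = 0.044) and Cnrip1 at -0.29 (edgeR adjusted p = 0.040); with that library left out 942 genes passed. Mutant THC 2 was the only mutant library with a low choroid plexus marker sum, 333 CPM, and had the highest hippocampal neuron marker sum of the mutants, 1616 CPM. With the Ttr factor the averaged Faah difference was -0.07 ± 0.15 (SE; edgeR adjusted p = 0.997), and the vehicle differences of Faah and Cnrip1 turned to 0.20 and 0.16. All 3 mutant vehicle and no control vehicle libraries are above that Ttr level, so under vehicle the genotype and the choroid plexus content cannot be told apart. The size of the Ttr factor was set by the THC libraries alone, and its vehicle values carry that size over.

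Naaa (chr5:92257660-92278181) went the other way. Its protein hydrolyses anandamide and its relative palmitoylethanolamide in lysosomes, and is known best from macrophages. It read 58.0, 50.2 and 48.04 CPM in mutant THC, 56.8, 55.6 and 60.4 in mutant vehicle, 47.7, 49.7 and 51.6 in control THC, and 49.0, 48.2 and 43.2 in control vehicle libraries. All 3 mutant vehicle libraries lay above all 3 control vehicle libraries. The log2 difference was 0.30 ± 0.08 under vehicle (SE; edgeR adjusted p = 0.16), 0.07 ± 0.08 under THC (SE; edgeR adjusted p = 0.76) and 0.18 ± 0.05 averaged (SE; edgeR adjusted p = 0.16). DESeq2 called the vehicle difference at 0.30 (adjusted p = 0.018) and the averaged one at 0.18 (adjusted p = 0.045). Other cell types moved with Naaa under vehicle: the choroid plexus marker sum was 6098 to 16807 CPM in mutant vehicle against 327 to 406 CPM in control vehicle libraries, the sum of 9 meningeal and mural markers 277 to 330 against 148 to 171 CPM, and the sum of 6 oligodendrocyte markers 6021 to 6797 against 4332 to 5527 CPM. The astrocyte sum was lower, at 5872 to 6311 CPM in mutant vehicle against 6354 to 6544 CPM in control vehicle libraries. Its most abundant gene, Slc1a2, averaged 3258 CPM in mutant vehicle and 3610 CPM in control vehicle libraries. Most of the 8 astrocyte genes went the other way, with 6 above 0 and 2 below and a median log2 difference of 0.079. The sum of 7 microglial markers overlapped, at 454 to 479 CPM in mutant vehicle and 401 to 487 CPM in control vehicle libraries. As given for Faah, the genotype and the choroid plexus content cannot be told apart under vehicle. The part of these cells in the Naaa difference was not tested.

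**Figure D3:**
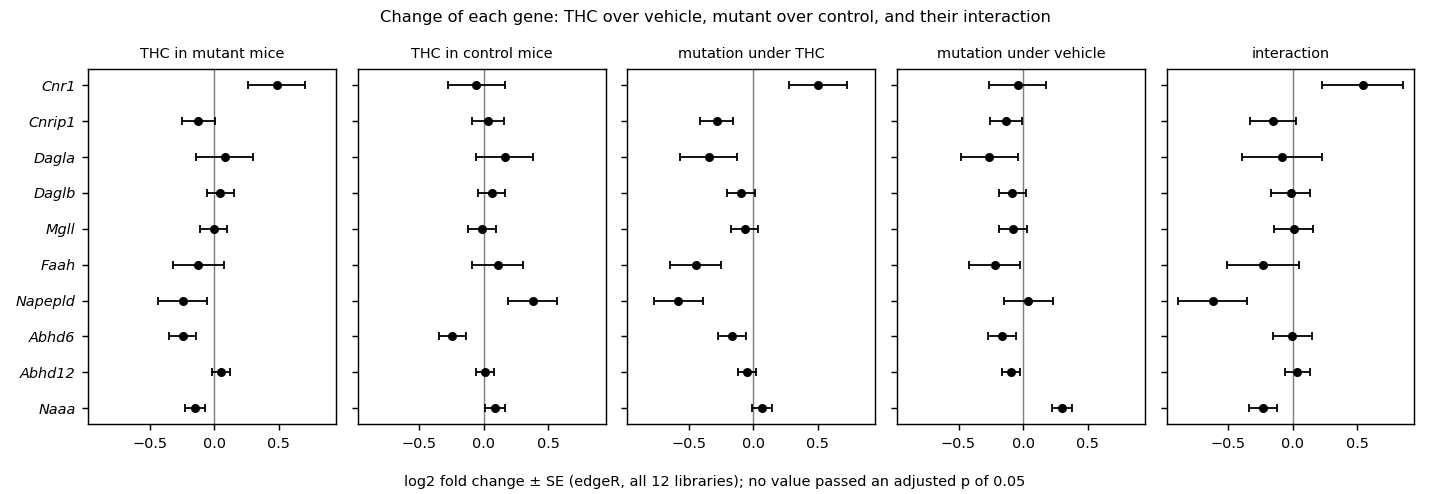
Fitted log2 differences of the 10 genes, THC over vehicle in each genotype, mutant over control under each treatment, and the interaction, with bars of 1 SE from edgeR's quasi-likelihood test. No point passed the threshold; Naaa under vehicle, at 0.30, lies farthest from 0 in units of its SE, and the widest bars belong to Cnr1 and Dagla.

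Counted over the 10 genes, THC in mutants gave 4 values above 0 and 6 below with a median log2 difference of -0.06, against -0.0078 over all tested genes; 0 of 10 passed, against 0% of all genes, 1 reached an unadjusted p under 0.05 (5.73% of all genes) and 1 did not overlap between the groups (8.47%). THC in controls gave 7 above and 3 below with a median of 0.046, against 0.00041 over all genes; 0 passed (0%), 1 reached an unadjusted p under 0.05 (7% of all genes) and 2 did not overlap (16.4%). These shares lie near those of all genes. Averaged over genotypes, THC gave 5 above and 5 below, 0 passed (0%) and 1 reached an unadjusted p under 0.05 (6.05%). The interaction gave 3 above and 7 below, 0 passed (0%) and 1 reached an unadjusted p under 0.05 (6.59%).

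For the mutation more of the 10 genes lay below 0, but under vehicle the balance turned round with the Ttr factor. Under vehicle 2 genes were above 0 (Naaa and Napepld) and 8 below, with a median of -0.09 against -0.0051 over all genes; 0 passed (0.00633%, 1 gene of all tested), 1 reached an unadjusted p under 0.05 (17.8%) and 2 did not overlap (28%). With the Ttr factor 8 were above 0 and 2 below, with a median of 0.16. Within each vehicle group all libraries lie on the same side of that Ttr level. The size of the factor was therefore set by the THC libraries alone, and this balance under vehicle rests on carrying it over. Under THC 2 were above 0 (Cnr1 and Naaa) and 8 below, with a median of -0.13 against 0.0051; 0 passed (0.00633%), 4 reached an unadjusted p under 0.05 (8.98%), namely Napepld, Faah, Cnrip1 and Cnr1, and 1 did not overlap (10.5%). Averaged over treatments 2 were above 0 and 8 below, 0 passed (0.00633%), and 3 reached an unadjusted p under 0.05 (21.2%); with the Ttr factor 5 were above 0 and 5 below. The comparisons within a pair of treatments or genotypes share libraries, so their values are given side by side only.

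Across libraries the 10 genes did not vary independently. Mutant THC 3 was the lowest of the 12 libraries for 5 genes (Cnrip1, Mgll, Faah, Napepld and Abhd6) and the highest for Cnr1. Control THC 3 was the highest for 5 (Cnrip1, Dagla, Mgll, Faah and Napepld). Mutant vehicle 3 was the lowest for Daglb and Abhd12 and the highest for Naaa, and mutant THC 2 the highest for Daglb and Abhd12. Control THC 3 had the highest hippocampal neuron marker sum, 1710 CPM, and mutant THC 3 the lowest, 889 CPM. The oligodendrocyte marker sum was lowest in control THC 3, at 3349 CPM, and highest in mutant THC 3, at 7104 CPM. Control THC 3 also had the lowest neocortical layer marker sum, 69.1 CPM. Whether neuron content or other tissue content set these values was not tested. Between the 10 genes the order of libraries was most alike for Faah and Daglb (Spearman's rho 0.916, Pearson's r 0.831, n = 12) and for Daglb and Abhd12 (rho 0.909, r 0.848). Cnr1 had a rho below 0 with each of the other 9 genes, from -0.713 with Mgll to -0.287 with Cnrip1. These libraries share depth and tissue content, so the values are a description without a p.

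**Figure D4:**
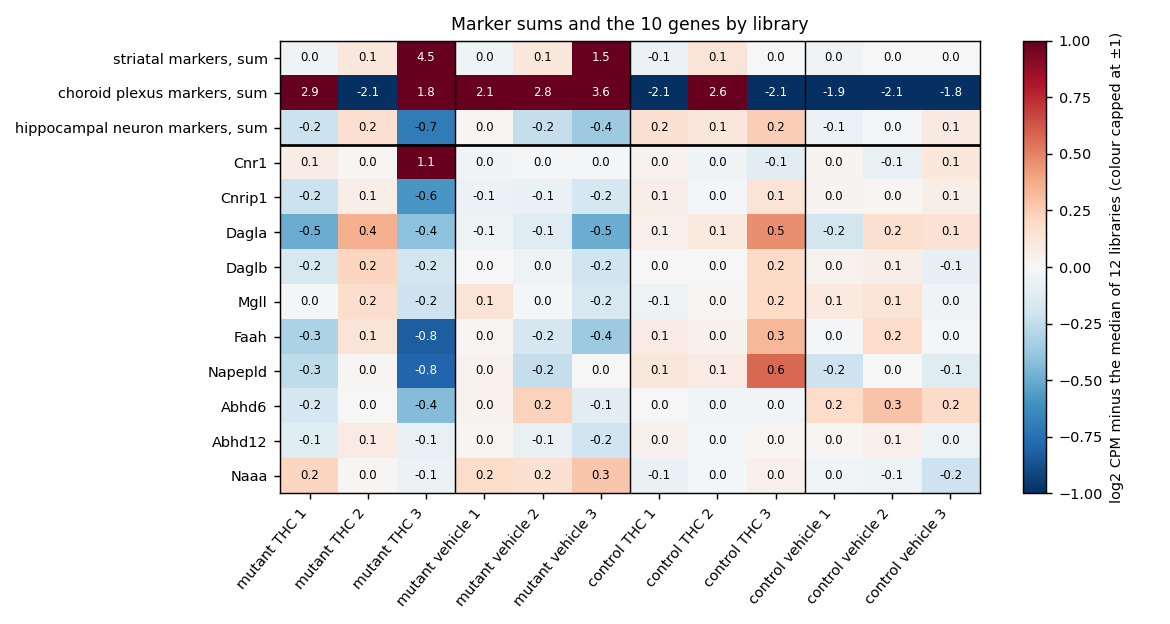
Each gene's log2 CPM minus its median over the 12 libraries, with the summed striatal, choroid plexus and hippocampal neuron markers above it; colours stop at ±1 and the numbers give the values. The column of mutant THC 3 is low for most of the 10 genes and high for Cnr1 and the striatal sum.

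The genes whose order over the 12 libraries was most like that of each of the 10 were taken from 11734 other genes of at least 5 mean CPM by Spearman's rho. The same limit holds. Cnr1 was closest to Jcad (0.972), Zfp941 (0.972) and Papss2 (0.944). Faah was closest to Rab3d, Sphkap and Dgkd (0.979 each), and Dagla with Abl2 (0.986), Sde2 (0.986) and the calcium channel gene Cacna1a (0.979). Daglb was nearest to Psd (0.993), Mgll to the adenylyl cyclase gene Adcy1 (0.951), and Napepld to the neuropeptide Y receptor gene Npy2r (0.951). Naaa was nearest to Il11ra1 (0.965), Abhd6 to Emc10 (0.951), Abhd12 to Zfand2b (0.965), and Cnrip1 to Kifbp (0.965).

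Further genes of the pathway gave no call in any of the 7 comparisons. Of 7 other receptors for cannabinoid lipids 3 were tested. Cnr2, which encodes the CB2 receptor of immune cells, was low, at 0.495 ± 0.043 CPM in mutant THC, 0.502 ± 0.205 in mutant vehicle, 0.436 ± 0.102 in control THC and 0.510 ± 0.095 in control vehicle mice (SD, n = 3 each). The nuclear receptor genes Ppara and Pparg had log2 differences of 0.24 ± 0.14 for mutant over control under vehicle and -0.31 ± 0.20 for THC over vehicle in controls (SE; edgeR adjusted p = 0.38 and 0.76). Gpr55, Gpr18, Gpr119 and Trpv1 held too few reads to be tested.

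Of 14 other enzymes and carriers 12 were tested. Abhd4, which acts on the anandamide precursor by a route that bypasses Napepld, differed by 0.17 ± 0.06 between mutant and control under THC (SE; edgeR adjusted p = 0.55). Pla2g4e, an enzyme that makes that precursor, differed by 0.40 ± 0.18 for THC in controls (SE; edgeR adjusted p = 0.70), and the carboxylesterase gene Ces1d by 2.02 ± 0.98 for mutant over control under vehicle (SE; edgeR adjusted p = 0.31). Ces1d was at a very low level, with 0.105, 0.567 and 1.07 CPM in mutant vehicle against 0.342, 0.027 and 0.052 CPM in control vehicle libraries, and these groups overlapped. All 11 genes of the Gq-coupled drive, by which glutamate and acetylcholine receptors set off 2-arachidonoylglycerol synthesis, were tested. The scaffold gene Homer1 differed by 0.52 ± 0.19 between mutant and control under THC, and the phospholipase gene Plcb4 by 0.49 ± 0.20 between mutant and control under vehicle (SE; edgeR adjusted p = 0.55 and 0.24). Plcb1 differed by 0.31 ± 0.17 for THC in mutants (SE; edgeR adjusted p = 0.81). As with Cnr1, mutant THC 3 was the high library for both Homer1, at 315 CPM against 172 and 190 CPM in its group mates, and Plcb1, at 664 CPM against 362 and 450 CPM.

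Of 16 partners through which CB1 acts, all tested, 2 were above 0 and 14 below for mutant over control under vehicle, with a median log2 difference of -0.16 against -0.0051 over all genes. The groups did not overlap for 8 of them, against 28% of all genes. The choroid plexus and astrocyte marker sums separated the same groups, as given for Naaa, though 6 of the 8 astrocyte genes were above 0. Here too genotype and choroid plexus content cannot be told apart. The arrestin gene Arrb1 was at -0.18 ± 0.05 and the inhibitory G protein gene Gnai3 at 0.27 ± 0.08 (SE; edgeR adjusted p = 0.17 for each). The 8 genes of the cholecystokinin interneuron list had 1 value above 0 and 7 below in the same comparison, with a median of -0.21 against -0.0051 over all genes. Cck itself read 233, 240 and 138 CPM in mutant THC, 246, 216 and 172 in mutant vehicle, 255, 231 and 245 in control THC, and 241, 252 and 271 in control vehicle libraries, with the lowest values in mutant THC 3 and mutant vehicle 3, the libraries with raised striatal markers. Within that list Slc17a8 differed by 0.42 ± 0.18 and Cplx2 by 0.21 ± 0.09 for THC in controls, and Tac2 by -0.55 ± 0.23 for mutant over control under vehicle (SE; edgeR adjusted p = 0.70, 0.70 and 0.25).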

How the data were processed

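Total RNA of 12 hippocampal samples was depleted of ribosomal RNA and sequenced as read pairs, per the labels' protocols. The authors deposited expected counts per gene; CASAVA 1.8.4, FastQC, Bowtie2 2.2.2, RSEM 1.2.21, edgeR 3.10.2 and mm10 are named in the submitters' processing notes. No source used here gives the strand setting.

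The deposited expected counts were rounded. Of 23382 rows, 23007 gained a symbol through RefSeq, 133 through GENCODE, and 242 kept none or several. After edgeR's filter on low counts over 4 groups, 15802 genes were fitted with edgeR 4.0.16 (R 4.3.3) with TMM scaling and 1 mean per group over all 12 libraries, which left 8 residual degrees of freedom; contrasts compared groups. SEs were derived from the F statistic. CPM are per 1000000 of the TMM-scaled total, and levels per length use GENCODE transcript lengths. Likeness used log2(CPM + 0.5).

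The 10 genes and all lists were chosen with earlier results of these data known. Every one of the 10 is named; from each list, the 3 genes of smallest p in any comparison of 2 groups, and the 3 genes most like each of the 10, of which the nearest are printed. The result of 1 listed gene is not reported here. Replicate numbers follow accession order. No pair of libraries agreed within sampling noise: the lowest mean chi-square per gene (1 degree of freedom) was 11.2. The procedure was tested on simulated data. Alternatives were DESeq2 1.42.0, limma-voom 3.58.1, other scalings, no filter, fits of 2 groups, libraries left out and, chosen after seeing the data, libraries above 1000 CPM of Ttr as a second factor.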

Additional observations from a re-analysis of the deposited data

How the results depend on the processing

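No paired analysis was possible because the library numbers in the labels do not recur between groups. Except where named here, the 10 genes kept their direction and their side of the threshold in all 7 comparisons; a direction was taken as turned where the sign changed and the value moved by more than its SE. DESeq2 called 1 of the 10, Naaa, for the mutation under vehicle and 1, again Naaa, for the mutation averaged. Leaving out 1 library gave 0 to 3 of the 10 called for the mutation averaged. Among all genes DESeq2 called 3 for THC in mutants, 12 for THC in controls, 788 for the mutation under vehicle, 7 for the mutation under THC, 34 for the interaction, 3 for THC averaged and 785 for the mutation averaged. For the mutation under vehicle, limma-voom called 0, the fit of only the 2 groups 523, the fit without mutant THC 3 and mutant vehicle 3 called 0, and the Ttr factor 0. For the mutation under THC, limma-voom, the 2-group fit and the fit without those 2 libraries called 0 each. With 1 library left out the counts ran from 0 to 3 for THC in mutants, 0 to 6 for the mutation under vehicle, 0 to 2 for the mutation under THC, 0 to 10 for the interaction, and 1 to 942 for the mutation averaged, with 942 when mutant THC 2 was left out. Log2 differences that turned ranged, with 1 library left out, from -0.24 to 0.24 for Dagla, -0.095 to 0.12 for Daglb, -0.29 to 0.031 for Cnrip1 and -0.39 to 0.086 for Faah (THC in mutants), from -0.013 to 0.12 for Naaa (mutation under THC) and from -0.038 to 0.20 for Dagla (THC averaged). With the Ttr factor, the mutation under vehicle gave 0.16 for Cnrip1, 0.23 for Dagla, 0.16 for Daglb, 0.10 for Mgll, 0.20 for Faah and 0.023 for Abhd12, and the mutation averaged gave 0.068 for Daglb, 0.043 for Mgll and 0.0028 for Abhd12. The size of the Ttr factor was set by the THC libraries alone. The causes were not tested. With 3 libraries a group, the SEs of the 10 genes between 2 groups ran from 0.07 for Abhd12 to 0.22 for Cnr1, and differences of 3 SE, such as that of Napepld under THC, did not pass after adjustment.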

Other observations

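The balance of anandamide genes within a library is given as a description chosen after the values were seen, with no test. The ratio of Napepld to Faah CPM was 0.299, 0.264 and 0.292 in mutant THC, 0.290, 0.272 and 0.367 in mutant vehicle, 0.291, 0.293 and 0.338 in control THC, and 0.249, 0.252 and 0.267 in control vehicle libraries. The control THC values lay above the control vehicle values without overlap, and the mutant groups overlapped each other. Among single genes 16.4% did not overlap between these 2 control groups, Napepld itself among them. The ratio of Dagla to Mgll CPM was 0.306, 0.482 and 0.368 in mutant THC, 0.373, 0.391 and 0.336 in mutant vehicle, 0.455, 0.450 and 0.508 in control THC, and 0.349, 0.432 and 0.479 in control vehicle libraries. Here mutant vehicle lay at the lower end of the control vehicle range or, for mutant vehicle 3, below it, and mutant THC 2 stood apart from its group mates.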
